A study of Mus musculus with 6 samples.

Results

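The genes described here are 6 ubiquitin ligases of muscle wasting (Trim63, Fbxo32, Fbxo30, Fbxo40, Fbxo21 and Mul1) and the 3 Foxo transcription factors Foxo1, Foxo3 and Foxo4. They were picked by gene symbol, by a rule that uses no measured value but was written with earlier results of these data known, and all 9 were found among the 13226 genes of the table. RNA was measured in whole tibialis anterior (TA) muscles of male C57BL/6 mice that were 8 weeks old when 1 TA muscle was injected with AAV6:Yap-shRNA and the contralateral TA muscle with a control vector. Muscles were taken after 7 days, with 3 muscles per group. AAV6, a viral vector of the adeno-associated family, enters muscle fibres, and the short hairpin RNA (shRNA) delivered with it is directed at the transcript of Yap1, which encodes the Hippo pathway co-activator Yap. The labels name the parent plasmid of the Yap-shRNA vector as AAV6:CMV-eGFP-MCS-SV40pA. They differ on the control, which the sample titles call an empty vector and the vector field calls AAV6:LacZ-shRNA, and it is called control here. Each of 3 animals gave 1 muscle to either group, but no label says that a muscle's number is its animal.

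Muscle loses protein when ubiquitin ligases tag contractile and other proteins for the proteasome. A RING ligase such as Trim63 brings the conjugating enzyme to its substrate, whereas an F-box protein such as Fbxo32 is the substrate-binding part of an SCF (Skp1, cullin, F-box) complex. Foxo factors are held in the cytoplasm when insulin or Igf1 signalling through Akt phosphorylates them, and in fasting, disuse or glucocorticoid excess they enter the nucleus and raise transcription of Trim63, Fbxo32 and autophagy genes. Much of this control is by phosphorylation, which RNA-sequencing does not measure.

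The promoter of Trim63 is shown because it carries the letters of the 3 kinds of binding site that bear on these genes. In the RefSeq promoter windows of build GRCm38.p6, which run from 250 bases before to 50 bases after a gene's start, 7 of the 9 members were found (all but Fbxo32 and Foxo4), with 8 windows in all since Fbxo40 had 2. Both strands were searched for the Foxo motif GTAAACA, for the core motif GGAATG of the Tead factors through which Yap acts on DNA, and for a palindrome of the glucocorticoid receptor, GAACA and TGTTC with any 3 bases between. The Trim63 window (chr4:134314870-134315169, plus strand) held 1 match to each. They began 208 (glucocorticoid receptor), 194 (Foxo) and 80 (Tead) bases before the start, and none overlapped another. Foxo3 (chr10:42276646-42276945, minus strand) held 2 matches to the Tead core and none to the other motifs. In the sequences, 5′ to 3′ on the gene's strand, capitals mark the matches:
Trim63: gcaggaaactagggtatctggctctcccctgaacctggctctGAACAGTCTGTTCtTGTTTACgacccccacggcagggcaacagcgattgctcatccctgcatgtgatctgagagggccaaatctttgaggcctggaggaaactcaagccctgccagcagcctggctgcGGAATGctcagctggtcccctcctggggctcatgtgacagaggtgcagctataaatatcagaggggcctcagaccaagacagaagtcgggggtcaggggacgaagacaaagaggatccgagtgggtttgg
Foxo3: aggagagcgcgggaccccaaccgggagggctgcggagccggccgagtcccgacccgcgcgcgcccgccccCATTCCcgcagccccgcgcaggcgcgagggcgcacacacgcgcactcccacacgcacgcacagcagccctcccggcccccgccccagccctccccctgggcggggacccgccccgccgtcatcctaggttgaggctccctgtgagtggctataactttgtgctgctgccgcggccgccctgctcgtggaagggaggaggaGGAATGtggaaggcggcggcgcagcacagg
The Foxo motif stood in 1 of the 8 windows, the Tead core in 2 and the palindrome in 1. Of all 32851 windows, 3.65% held the Foxo motif, 14.7% the Tead core and 0.0578% the palindrome. A match is a run of letters and not a bound site.

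The libraries held 11987167 to 12710393 counts. Within a group, chi-square per degree of freedom between libraries was 7.62 to 21.4, above the value of 1 that sampling noise alone gives, so each library was counted as a sample of its own. Summed over fast fibre markers (7 of 7 counted, such as Acta1, Ckm and Myh4), the control level was 121214 to 141502 CPM (CPM being read counts set to a common library size by TMM) and the Yap-shRNA level 117261 to 138741 CPM. Of 49 marker genes over 12 cell types, 45 were counted and none passed the test between groups. The 4 lymphocyte markers were not analysed here. Control 1 and Yap-shRNA 3 stood apart in tendon markers (3 of 3 counted: Tnmd, Scx and Fmod), with sums of 319.6 and 289.6 CPM against 36.9 to 56.2 CPM in the other 4 muscles. The same pair had the highest fibroblast marker sums (5 of 5 counted), at 1957 and 2227 CPM against 1001 to 1186 CPM. Yap-shRNA 3 also had the highest adipocyte marker sum (3 of 3 counted), 35.6 CPM, against 4.85 to 10.7 CPM in the other muscles. Control 3 had the highest liver marker sum (Alb, Apoa1 and Ttr), 327.6 CPM, against 0.319 to 36.5 CPM elsewhere. In RNA from whole muscle, fewer cells of a type and less RNA per cell cannot be told apart.

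The targeted gene, Yap1, had control counts of 915, 781 and 833 and Yap-shRNA counts of 381, 311 and 495, and its groups did not overlap. Its level in the treated muscles was 46.5% of control, with a log2 fold change of -1.10 (95% interval -1.47 to -0.74). By the quasi-likelihood test of edgeR its adjusted p over all genes was 0.436, which ranged from 5.85e-07 (DESeq2) to 1.00 over the alternatives tried. With Yap1 at this level, none of the 9 members passed the test (adjusted p of 1.00 each), and none had an unadjusted p under 0.05. The share of all genes called by this test was 0%, with 232 genes (1.75%) at an unadjusted p under 0.05, and DESeq2 and the likelihood ratio test called 5 genes each (0.0378% of those tested), none of them a member. No member had groups without overlap, a state found in 5.27% of all genes (2.56% higher and 2.71% lower with Yap-shRNA). The fitted log2 fold changes of the members ran from -0.047 (Fbxo40) to 0.18 (Fbxo32), 7 above 0 and 2 below, with a median of 0.068 against -0.0029 over all genes tested. Each 95% interval excluded a 2-fold change in either direction, and that of 8 members lay within 1.5-fold, the exception being Fbxo21.

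**Figure D1:**
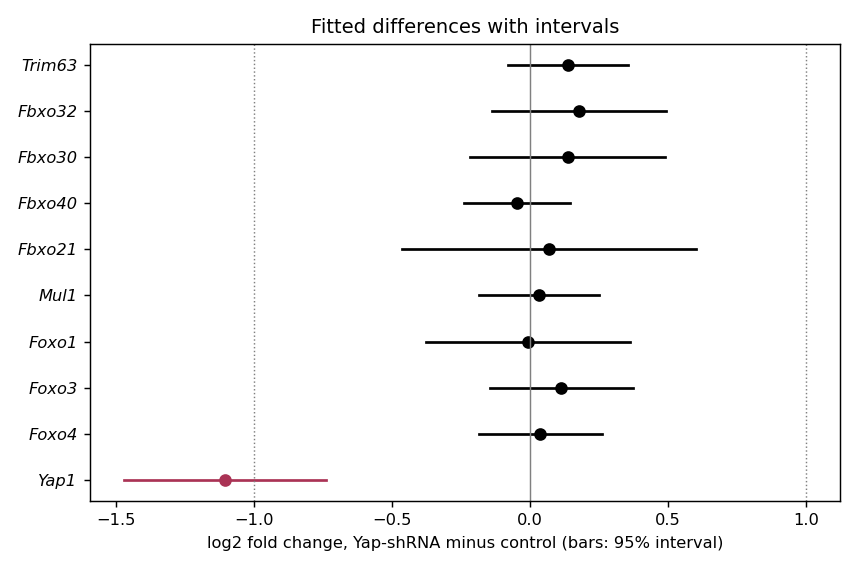
Log2 fold change of each member and of Yap1, Yap-shRNA minus control, with 95% intervals from edgeR (3 muscles per group). Dotted lines mark 2-fold changes. Every member's interval spans 0 and stays inside the dotted lines, whereas that of Yap1 runs from -1.47 to -0.74.

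Per length, the members differed widely in abundance. CPM was divided by the kilobases of a gene's merged exons (GENCODE M21 on GRCm38), so that genes could be compared. Trim63 stood highest at 68.0 ± 4.88 CPM per kb in control muscles (SD, n = 3), followed by Fbxo40 at 57.7 ± 0.489 and Foxo4 at 54.1 ± 2.34. Fbxo32 (29.1 ± 2.69) and Mul1 (13.2 ± 0.917) were intermediate. Fbxo30 (2.77 ± 0.329), Fbxo21 (2.40 ± 0.671), Foxo3 (2.38 ± 0.0812) and Foxo1 (1.91 ± 0.368) were lowest. Among neighbours in this order, the control ranges of Fbxo30 and Fbxo21, and of Fbxo21 and Foxo3, overlapped. Those of Fbxo40 and Foxo4 were apart in control muscles, but overlapped in Yap-shRNA muscles. The remaining neighbours were apart in both groups. Foxo4 was therefore the main Foxo transcript of the 3 in TA muscle, at 23.1 to 35.1 times the per-length level of Foxo1 and 21.2 to 23.6 times that of Foxo3 over the 6 muscles.

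**Figure D2:**
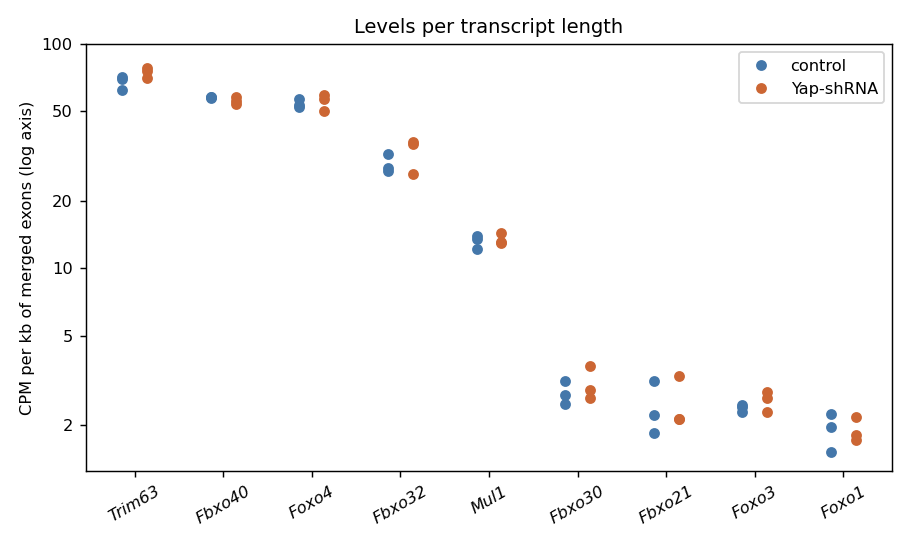
CPM per kb of merged exons (log axis) for each member in the 3 control and 3 Yap-shRNA muscles, in the order of the control means. Trim63, Fbxo40 and Foxo4 lie between 50.1 and 77.9 in every muscle, and Fbxo30, Fbxo21, Foxo3 and Foxo1 between 1.52 and 3.65.

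Trim63 (ENSMUSG00000028834, chr4:134315120-134329629, plus strand) encodes MuRF1, a RING ligase of the sarcomere that targets myosin and other thick-filament proteins. Control counts were 2278, 2379 and 2476 and Yap-shRNA counts 2388, 2883 and 2699, or 177.3, 198.9 and 203.2 CPM against 200.3, 221.4 and 215.2 CPM. Yap-shRNA 2 and Yap-shRNA 3 lay above all controls, while Yap-shRNA 1 lay below control 3. The group means were 193.1 ± 13.9 and 212.3 ± 10.8 CPM (SD, n = 3), a log2 fold change of 0.14 (standard error 0.096, 95% interval -0.080 to 0.35). The exact permutation test (two-sided) gave p = 0.20, where 3 muscles against 3 allow no p below 0.10.

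Fbxo32 (ENSMUSG00000022358, chr15:58175879-58214932, minus strand) encodes atrogin-1, the F-box protein that directs an SCF ligase to MyoD and the translation factor eIF3f. Its control counts were 2882, 2334 and 2308 and its Yap-shRNA counts 2972, 3331 and 2292, which corresponds to 224.3, 195.1 and 189.4 CPM and to 249.3, 255.8 and 182.8 CPM. The first and second Yap-shRNA muscles were the highest of the 6, and the third was the lowest. The log2 fold change, 0.18 (standard error 0.14, 95% interval -0.14 to 0.49), was the highest among the members, and its exact permutation p was 0.40. This value depended on single muscles: leaving out Yap-shRNA 3 gave a log2 fold change of 0.32, whereas leaving out Yap-shRNA 1 gave 0.11 and leaving out Yap-shRNA 2 gave 0.090 (edgeR adjusted p of 1.00 each). In the 4 muscles with low tendon markers, a comparison chosen after the marker sums were seen, it was 0.39 (95% interval 0.16 to 0.63, adjusted p 0.792, 2 muscles per group). The muscles left out were the highest control and the lowest Yap-shRNA muscle for Fbxo32, so this comparison cannot decide whether Fbxo32 rose. The exons of Fbxo32 share 186 bases with the antisense gene Gm15943, which had 110 counts over all 6 libraries.

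Fbxo40 (ENSMUSG00000047746, chr16:36963460-36990467, minus strand) encodes a striated-muscle F-box protein that targets the insulin receptor substrate Irs1. It had the least variation of the members, with control counts of 4051, 3823 and 3903 and Yap-shRNA counts of 3553, 3984 and 4022. The control level was 318.4 ± 2.70 CPM and the Yap-shRNA level 308.2 ± 11.5 CPM (SD, n = 3). Yap-shRNA 1 and 2 fell below all controls, at 298.1 and 305.9 CPM, and Yap-shRNA 3 was the highest muscle at 320.7 CPM. The log2 fold change was -0.047 (95% interval -0.24 to 0.15).

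Fbxo30 (also called MUSA1) and Fbxo21 encode F-box proteins also raised in denervated or fasted muscle. Fbxo30 (ENSMUSG00000047648, chr10:11281330-11298052, plus strand) had control counts of 181, 154 and 198 and Yap-shRNA counts of 226, 179 and 186. Only Yap-shRNA 1 lay above all controls, and without it the log2 fold change of 0.14 (95% interval -0.22 to 0.49) became -0.011. Fbxo21 (ENSMUSG00000032898, chr5:117976730-118010201, plus strand) had control counts of 224, 122 and 150 and Yap-shRNA counts of 219, 154 and 148. In both groups the muscle numbered 1 was the highest, at 17.4 CPM and 18.4 CPM, with the other 4 muscles between 10.2 and 12.3 CPM. In a model with group and number, the number had an unadjusted p of 0.00512 for Fbxo21 (adjusted 0.516, edgeR), the only member under 0.05, a level reached by 5.97% of all genes (0.0983% after adjustment). Fbxo21 had the widest interval of the members, -0.46 to 0.60 around a log2 fold change of 0.068. Without control 1 and Yap-shRNA 3, the muscles with high tendon markers, the value was 0.42 (95% interval -0.083 to 0.92, edgeR adjusted p 0.905). This comparison was chosen after the marker sums were seen. It drops control 1 but keeps Yap-shRNA 1, the muscles highest for Fbxo21, and leaving out control 1 alone gave 0.31.

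Mul1 (ENSMUSG00000041241, chr4:138434671-138442265, plus strand) encodes a ligase of the outer mitochondrial membrane that targets the fusion protein mitofusin. Its control counts were 623, 664 and 656 and its Yap-shRNA counts 622, 675 and 719. The means were 52.6 ± 3.67 and 53.8 ± 3.08 CPM (SD, n = 3), with a log2 fold change of 0.032 (95% interval -0.19 to 0.25). Its lowest muscle was control 1 and its highest Yap-shRNA 3, and the groups overlapped.

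**Figure D3:**
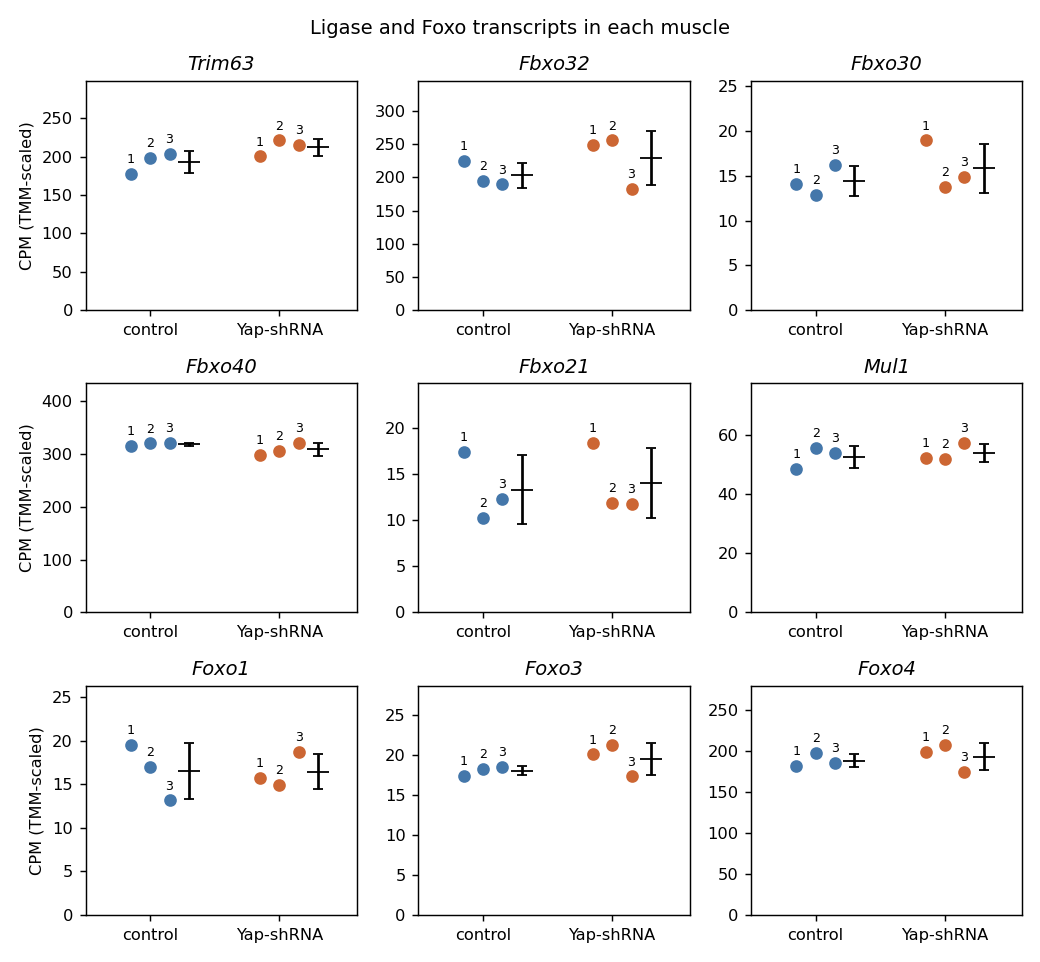
TMM-scaled CPM of each member in the 3 control and 3 Yap-shRNA muscles (numbers beside points are the labels' replicate numbers), with mean and SD as bars; each vertical axis starts at 0. The groups overlap for every member, and Fbxo40 shows the least spread.

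The groups also overlapped for each of the transcription factors, and none of them passed the test. Foxo1 (ENSMUSG00000044167, chr3:52268336-52353221, plus strand), the Foxo factor best known for raising atrophy genes together with Foxo3, had control counts of 250, 203 and 160 and Yap-shRNA counts of 187, 194 and 235. Its levels were 19.5, 17.0 and 13.1 CPM against 15.7, 14.9 and 18.7 CPM, so that the control muscles held both the highest and the lowest value. The log2 fold change was -0.0078 (95% interval -0.38 to 0.36). Control 1 and Yap-shRNA 3, the muscles with the highest tendon and fibroblast marker sums, were also the highest for Foxo1. Over the 6 libraries its log2 CPM had a Pearson's r of 0.89 with the log2 fibroblast sum, the highest of the 9 members. The other members ran from -0.71 (Foxo4) and -0.66 (Foxo3) to 0.30 (Fbxo40). The part of those cells in the Foxo1 values was not tested, and without both muscles the log2 fold change was 0.024 (95% interval -0.35 to 0.40). Exons of Foxo1 share 674 bases with the antisense gene Gm20402, which is not among the genes of the table.

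Foxo3 (ENSMUSG00000048756, chr10:42181841-42276755, minus strand), which drives both ligase and autophagy genes in wasting muscle, had control counts of 223, 218 and 226 and Yap-shRNA counts of 239, 276 and 217. Its log2 fold change was 0.11 (95% interval -0.15 to 0.37). Foxo4 (ENSMUSG00000042903, X chromosome, positions 101254528 to 101260873, plus strand) had 2343, 2366 and 2261 counts against 2369, 2699 and 2188. Its means were 188.6 ± 8.17 and 193.5 ± 17.0 CPM (SD, n = 3), a log2 fold change of 0.037 (95% interval -0.19 to 0.26). For both genes Yap-shRNA 1 and 2 lay above all controls and Yap-shRNA 3 below them, the same order by which Fbxo32 was split.

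The members did not rise and fall as a single block across the 6 muscles. Of their 36 pairs, 15 had a positive Pearson's r of log2 CPM and 21 a negative one. The highest was 0.88, for Foxo3 and Foxo4, followed by Fbxo32 with Foxo3 (0.77) and with Foxo4 (0.71). The lowest was -0.91, for Fbxo32 and Fbxo40. Trim63 and Fbxo32, the pair most used as markers of wasting, had an r of -0.0068. These values are descriptions over 6 libraries, of which some share an animal. The biological coefficient of variation of the members ran from 9.11% (Fbxo40) to 20.7% (Fbxo21). Only Fbxo21 and Foxo1 (14.7%) lay above the median of 14.5% over all genes.

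**Figure D4:**
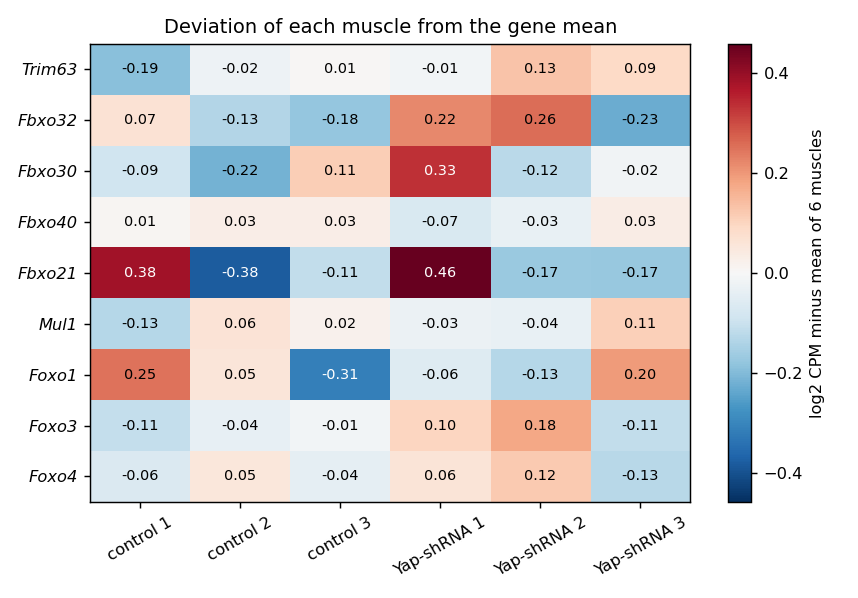
Log2 CPM of each member in each muscle minus that gene's mean over the 6 muscles. Rows for Fbxo32, Foxo3 and Foxo4 are high in Yap-shRNA 1 and 2 and low in Yap-shRNA 3, Foxo1 is high in control 1 and Yap-shRNA 3, and Fbxo21 is high in the muscle numbered 1 of each group.

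Of 11453 other genes with a mean log2 CPM of at least 1, those most like Trim63 across the 6 libraries were Pitpnm2 (Pearson's r 0.986, Spearman's rho 0.771), Spryd3 (r 0.974) and Galnt10 (0.973). Those most like Fbxo32 were Paip2b (0.979), Cbx7 (0.976) and Nat10 (0.972). For Foxo1 they were Cygb (0.995), Rpl3 (0.983) and Ptn (0.979). An r of at least 0.9 was reached by 37 genes with Trim63 (0.323% of those compared), 61 with Fbxo32 (0.533%) and 109 with Foxo1 (0.952%). No other member was among the 3 genes closest to any of them. The named genes are the highest of 11453 values over 6 libraries, and whether unrelated genes reach such values was not tested.

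The genes around the members in the same pathway were followed in 7 lists, of which 139 different genes were counted. None of them passed the test, 3 (2.16%) had an unadjusted p under 0.05 and 9 (6.47%) had groups without overlap, against 1.75% and 5.27% of all genes. List medians of the log2 fold change ran from -0.048 to 0.048. Of the list of SCF parts, another cullin and cofactors of cullin ligases, 12 of 13 had values below 0 (median -0.048, which became -0.0031 without control 2). Cul3, the cullin of ligases with BTB adaptors rather than of SCF ligases, was at 254.0 ± 26.3 CPM in control and 253.9 ± 31.1 CPM in Yap-shRNA muscles (SD, n = 3). Cdc34, a conjugating enzyme of SCF ligases, had a log2 fold change of -0.043. Cul1, the cullin of SCF ligases, is added after its values were seen: it was at 84.4 ± 2.61 CPM in control and 79.4 ± 2.34 CPM in Yap-shRNA muscles (SD, n = 3), groups that did not overlap, with an adjusted p of 1.00 by edgeR.

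Among 27 other muscle ubiquitin ligases, 15 values lay above 0 and 12 below (median 0.014). Asb2, the most abundant, was at 642.5 ± 41.7 CPM in control and 660.1 ± 18.3 CPM in Yap-shRNA muscles, and Nedd4 had a log2 fold change of 0.035. The 17 ubiquitin and conjugating enzyme genes had a median of 0.012. Ube2b, a conjugating enzyme that works with muscle ligases, had a log2 fold change of -0.015.

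Downstream, the 21 Foxo-linked autophagy genes stayed between -0.14 (Atg12) and 0.099 (Sqstm1), with a median of 0.014. Pink1, a kinase that marks damaged mitochondria, was the most abundant, with 1040 ± 79.0 CPM against 1065 ± 51.9 CPM (SD, n = 3). The list of other Foxo-linked atrophy genes held 19 counted genes (median 0.048). Pdk4, which restrains glucose oxidation and is a Foxo target in fasting, had control counts of 13771, 3668 and 2209 and Yap-shRNA counts of 13454, 4449 and 2324, so that muscles of the same number were close while those within a group differed widely. Txnip, which curbs glucose uptake, was at 770.7 ± 74.8 and 769.5 ± 57.9 CPM. The 3 listed genes with an unadjusted p under 0.05 were named after their values were seen. Cdkn1a, a cell cycle inhibitor, had a log2 fold change of 0.58 (unadjusted p 0.00591), Gadd45a, a stress gene, 0.52 (0.0185), and the ligase adaptor Klhl40 0.31 (0.0456), each with an adjusted p of 1.00 by edgeR.

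The list of Akt pathway genes, regulators of Foxo factors and the related factors Foxo6, Foxk1 and Foxk2 held 30 genes, whose log2 fold changes ran from -0.22 (Irs1) to 0.22 (Phlpp2), with a median of 0.018. Sgk1, a kinase that phosphorylates Foxo factors as Akt does, had 2463, 3124 and 2676 counts against 2482, 3426 and 2486, and Ywhag, whose product holds phosphorylated Foxo factors in the cytoplasm, had a log2 fold change of 0.022. Transcripts of 13 proteins described as substrates of the member ligases had a median of -0.041, with 10 values below 0. Mylpf, the fast regulatory myosin light chain, was at 11843 ± 217 CPM in control and 10500 ± 1643 CPM in Yap-shRNA muscles (log2 fold change -0.17), and Myh4, the fast myosin heavy chain, had a log2 fold change of -0.024. Protein abundance and turnover were not measured.

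**Figure D5:**
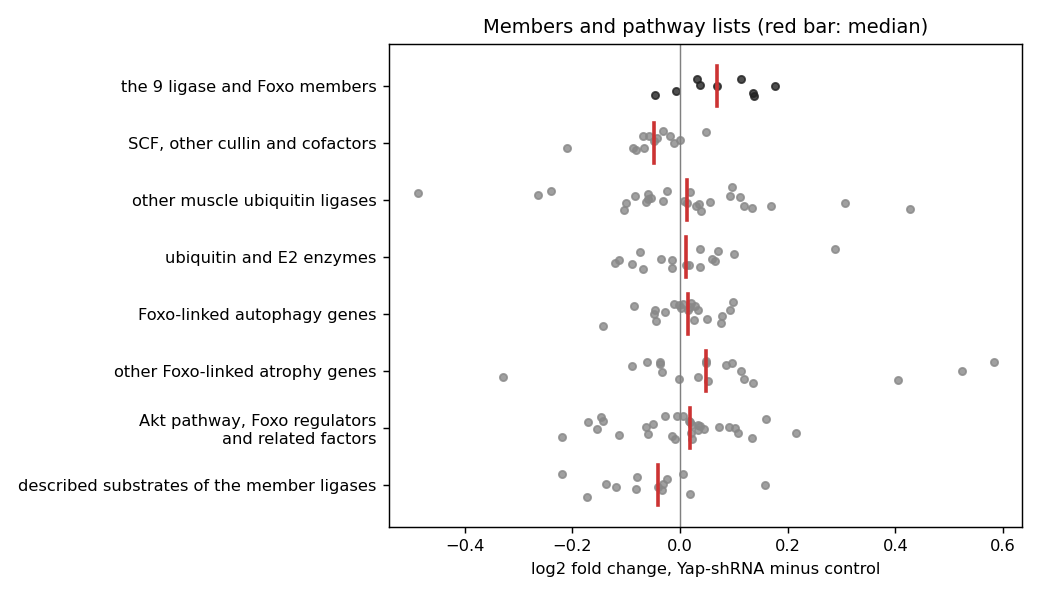
Log2 fold change (Yap-shRNA minus control) of the 9 members and of each counted gene in the 7 pathway lists, with the median of each as a red bar. The medians lie between -0.048 and 0.068, and the 2 highest points outside the members are Cdkn1a (0.58) and Gadd45a (0.52).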

How the data were processed

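PolyA+ RNA of 6 whole TA muscles was sequenced by the submitters from Illumina TruSeq libraries. The authors deposited raw read counts per gene, without normalisation, in 1 table whose 6 columns were matched to samples by name. The submitters' processing notes name bcl2fastq 2.20.0.422 and the build GRCm38. The aligner, counter, annotation and strand setting are not given in the sources used here, so reads of overlapping antisense genes cannot be told apart. No gene had fewer than 60 counts over the 6 libraries.

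The counts were compared between groups in R 4.3.3 by the quasi-likelihood test of edgeR 4.0.16, after TMM scaling, for genes with a mean of at least 10 counts (all of the table) and with no covariate, with Benjamini-Hochberg adjustment over all 13226 genes and a threshold of 0.05. Standard errors were the log2 fold change divided by the root of the test statistic, and 95% intervals were taken from them, unadjusted. The code was tested on simulated data. Log2 CPM used a prior count of 2. Exact permutation tests were two-sided over the 6 muscles. The series design text gives 3 animals, each with a control and a treated muscle, and no label says which number is which animal. The p-values therefore rest on the spread among 3 muscles per group and ignore the pairing. Alternatives were DESeq2 1.42.0, the likelihood ratio test, voom of limma 3.58.1, upper-quartile and DESeq2 scaling, other count filters, a replicate block and leaving out each muscle. Named genes were the members, Yap1, the 2 most abundant genes of each pathway list with any past the threshold, and the 3 genes most like Trim63, Fbxo32 and Foxo1. Of these, 1 gene is not reported here. The members and lists were chosen with earlier results of these data known. Promoter windows came from RefSeq, and positions from GENCODE M21.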

Additional observations from a re-analysis of the deposited data

How the results depend on the processing

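No member passed the threshold under any of the 15 alternatives, with adjusted p of 0.734 or more. Of 135 combinations of a member and an alternative, 121 kept the direction and 14 changed sign, 10 of them when 1 muscle was left out. Over all genes the count of 0 became 5 with DESeq2, 5 with the likelihood ratio test, 0 to 1 with each muscle left out (Mir155hg, without Yap-shRNA 3) and 3 in the 4 muscles with low tendon markers, which were chosen after seeing the data. Apart from settings that leave out 1 muscle, Foxo1 moved above 0 with limma-voom (0.0020), the replicate block (0.0011) and those 4 muscles (0.024), and Mul1 moved below 0 in those 4 muscles (-0.072).

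With each muscle left out, log2 fold changes of Foxo1 lay between -0.15 and 0.13 (above 0 in 4 of the 6 cases), and they ran from -0.17 to 0.31 for Fbxo21, -0.011 to 0.23 for Fbxo30, -0.023 to 0.073 for Mul1 and -0.015 to 0.11 for Foxo4. Values were 0.079 to 0.18 for Trim63, 0.090 to 0.32 for Fbxo32, 0.050 to 0.19 for Foxo3, -0.076 to -0.023 for Fbxo40 and -1.29 to -0.93 for Yap1. The cause of these shifts was not tested.

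The replicate block left the count at 0 genes, with Yap1 at an adjusted p of 0.105 and the members at log2 fold changes of -0.047 (Fbxo40) to 0.16 (Fbxo32). Deviations of same-numbered muscles had correlations of -0.065, 0.20 and -0.32 across genes, and of the control muscles only control 2 correlated best with its own number. The highest value, 0.38, was between control 1 and Yap-shRNA 3, the muscles with high tendon markers. These correlations carry any difference in make-up between muscles, so they cannot decide whether muscles of the same number share an animal. The number itself passed the threshold for 13 genes and no member, and the standard error of Fbxo21 was 0.24 without and 0.13 with the block. With 3 muscles per group, changes of a member as large as the ends of its printed interval were not excluded.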
